A study of Mus musculus with 9 samples.

Results

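The enzymes and carriers of glycolysis, glycogen handling and the pentose phosphate pathway were followed at the mRNA level in mouse muscle stem cells (MuSCs) before and during commitment to muscle. The group was chosen by gene name and held 39 genes, namely 5 membrane carriers of glucose and lactate, the enzymes from hexokinase to lactate dehydrogenase, the 4 bifunctional enzymes that set fructose 2,6-bisphosphate, 7 genes of glycogen turnover and 4 of the pentose phosphate pathway. Of the 39, 38 had a row under their own symbol among the 25655 rows of the table, and *Aldoa* was listed as a split pair of rows that is described apart. Of the 38, 37 had at least 1 count in every library and were tested with the 12614 genes that met this condition. *Phkg1* was at 0 in 1 library and is given by its counts.

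Poly(A) RNA was sequenced from 3 groups with 3 libraries each. MyoD-tdTomato high and MyoD-tdTomato low cells came from MuSCs of heterozygous MyoD-KI mice on a C57BL/6 background. These mice carry a tdTomato sequence joined by a P2A peptide to the end of the endogenous *MyoD* (*Myod1*) coding sequence. Their sex is not given for these libraries. The MuSCs were enriched with magnetic beads from hindlimb muscle of mice aged 10 to 16 weeks. They were grown for 5 days in a serum-rich growth medium and sorted by their tdTomato fluorescence. QSCs were MuSCs taken fresh, without culture, from leg muscle of male Pax7-YFP mice aged 15 to 16 weeks and homozygous for that reporter. Culture, mouse line, zygosity and sort gate therefore differ together between QSCs and the other groups and cannot be told apart. Sex, age and bead enrichment may differ as well. The sort of the cultured cells used the output of the *Myod1* locus itself. By the study's methods the 3 libraries of each group were technical replicates, and the p-values below therefore cover only how far these libraries differed from one another.

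Total gene counts lay between 24643176 and 26782872 in MyoD-tdTomato high, between 24471782 and 25767904 in MyoD-tdTomato low, and between 7514633 and 18077031 in QSCs. The labels were checked on markers: *Pax7*, which marks the stem cell, averaged 32.8, 65.1 and 80.8 TPM (a transcript level corrected for gene length and library depth) in MyoD-tdTomato high, MyoD-tdTomato low and QSCs, and *Myog*, a factor of terminal differentiation, averaged 3594, 524 and 73.6 TPM in the same groups. *Myod1* averaged 1863, 993 and 591 TPM, so that QSCs were not without it. QSCs also held RNA of other cells and background reads. Summed over their marker lists, 6 erythroid genes reached 931 to 2200 TPM in QSCs against at most 1.17 TPM in any cultured library, 10 endothelial genes were at 5 to 7.25 TPM in MyoD-tdTomato high, 23.1 to 40.6 TPM in MyoD-tdTomato low and 387 to 704 TPM in QSCs, and 10 myeloid genes were at 11.1 to 22.6, 54.6 to 101 and 92 to 167 TPM. Counts on 1587 chemosensory receptor genes, taken here as a measure of background, made up 20.4 to 29.6 CPM (counts scaled to library depth) in cultured libraries and 562, 2990 and 768 CPM in QSCs replicates 1, 2 and 3.

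Glycolysis splits glucose into pyruvate in a chain of cytosolic steps, and lactate dehydrogenase turns pyruvate into lactate when it is not oxidised in mitochondria. Glycogen is the stored form of glucose, built by glycogen synthase and branching enzyme and taken apart by glycogen phosphorylase, which phosphorylase kinase switches on. The pentose phosphate pathway leaves glycolysis at glucose 6-phosphate and yields NADPH and ribose for nucleotides. Many steps are served by several genes, of which 1 is the form of mature skeletal muscle and the others serve most other cells. Such muscle forms are *Pfkm*, *Pgam2*, *Eno3*, *Pygm* and the glucose carrier *Slc2a4*, and also *Hk2*, *Phka1* and *Phkg1*. Contracting muscle is known for a high capacity of glycolysis and a large store of glycogen.

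Summed over all 40 rows, including both *Aldoa* rows, these transcripts took 16190, 15580 and 15460 TPM in the MyoD-tdTomato high libraries, 14050, 14950 and 14130 TPM in the MyoD-tdTomato low libraries, and 2697, 3063 and 2383 TPM in the QSCs. Cultured libraries thus stood far apart from QSCs, and the total of MyoD-tdTomato high stood above that of MyoD-tdTomato low without overlap. The main *Aldoa* row carried much of that gap. It had 3119, 2348 and 2644 TPM in MyoD-tdTomato high and 1862, 1708 and 1762 TPM in MyoD-tdTomato low. Lower glycolysis, the largest step, overlapped between the cultured groups. It was at 10080 to 10450 TPM in MyoD-tdTomato high and 9588 to 10490 TPM in MyoD-tdTomato low. The steps did not all follow this order. Glycogen genes summed to 282.5 to 400.6 TPM in MyoD-tdTomato high, 145.6 to 176.3 TPM in MyoD-tdTomato low and 78.3 to 101.5 TPM in QSCs. Pentose phosphate genes were at 597 to 775 TPM in MyoD-tdTomato high, 856 to 1012 TPM in MyoD-tdTomato low and 111 to 201 TPM in QSCs, so that MyoD-tdTomato low was the highest group there. Carriers overlapped among all 3 groups, at 108 to 122, 109 to 134 and 94.7 to 129 TPM in MyoD-tdTomato high, MyoD-tdTomato low and QSCs.

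**Figure D1:**
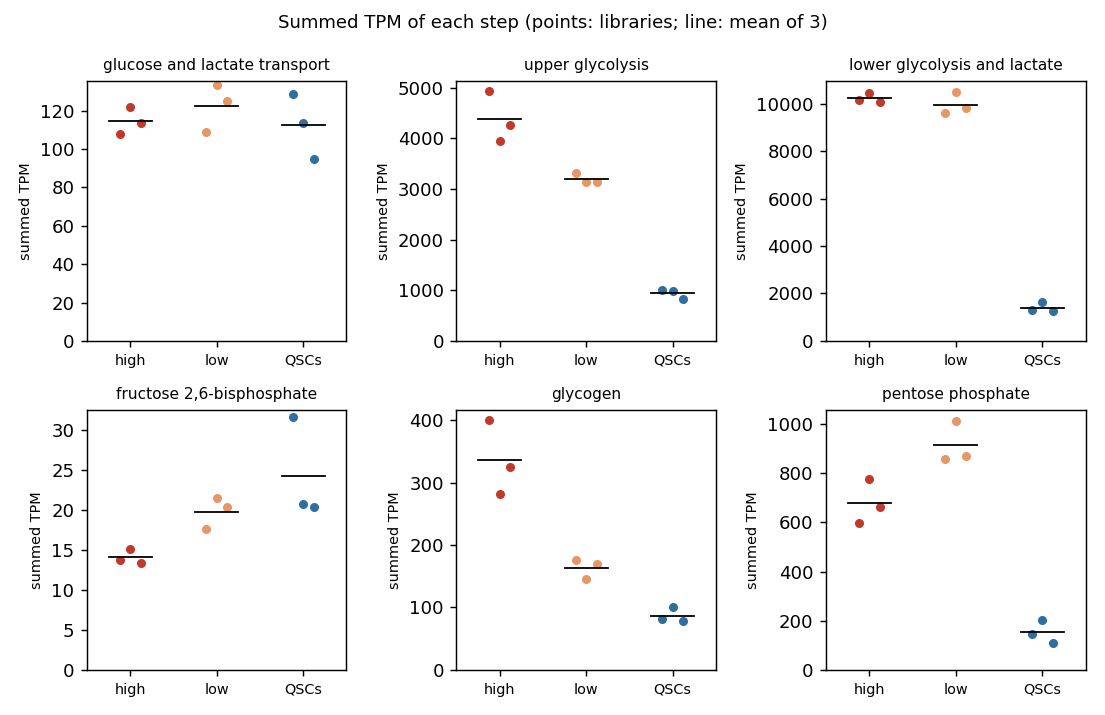
Summed TPM of the genes of each step (y axis, linear, from 0) in each library of MyoD-tdTomato high, MyoD-tdTomato low and QSCs; points are libraries and the line is the mean of 3. Lower glycolysis was at 9588 TPM or more in every cultured library and at 1640 TPM or less in every QSC library, glycogen genes were highest in MyoD-tdTomato high, and pentose phosphate genes were highest in MyoD-tdTomato low.

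A gene was called changed at an adjusted p under 0.01 with a fold change over 1.5, from counts scaled by library (edgeR's quasi-likelihood test on all 9 libraries, p adjusted over 12614 genes). Changes are given as log2 fold change ± SE. In MyoD-tdTomato high against MyoD-tdTomato low, 4 of the 37 genes were called higher (10.8%, where 3.88% of all genes tested were) and 0 lower (1.23% of all genes). In MyoD-tdTomato high against QSCs, 19 were called higher (51.4%, against 24.6% of all genes) and 8 lower (21.6%, against 26.4%). In MyoD-tdTomato low against QSCs, 16 were called higher (43.2%, against 22.6%) and 9 lower (24.3%, against 26.5%). The median change of the 37 genes was -0.008, 0.994 and 0.595 in these 3 comparisons, beside 0.001, -0.022 and -0.075 over all genes tested. The comparisons share their groups and so are not independent of each other.

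Levels in TPM and the fitted changes are on different scales. On log2(TPM + 1) the median gene was 0.59 higher in MyoD-tdTomato high and 0.67 higher in MyoD-tdTomato low than in QSCs, and 0.11 lower in MyoD-tdTomato high than in MyoD-tdTomato low, so that a gene at equal TPM in cultured cells and QSCs has a negative fitted change. The counts of genes called higher against QSCs therefore grow, and those called lower shrink, when TPM are tested instead (limma): 5 genes were then called lower in each comparison with QSCs. *Slc2a1*, *Pfkp* and *Pfkfb2* in both comparisons with QSCs, and *Pygm* in MyoD-tdTomato low against QSCs, are the calls that rest on the count scale. On TPM but not in the main fit on counts, *Slc16a1*, *Pfkfb4*, *Phka1* and *Gbe1* were called higher in MyoD-tdTomato high, and *Slc16a1*, *Pgam2*, *Ldhb*, *Pfkfb4* and *Tkt* in MyoD-tdTomato low. Near-identical copies of *Eno1*, *Aldoa*, *G6pdx*, *Pgk1*, *Ldha* and *Gapdh* have rows of their own, and how reads shared with them were counted is not given in the sources used here, so the levels of these genes are uncertain to that extent.

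**Figure D2:**
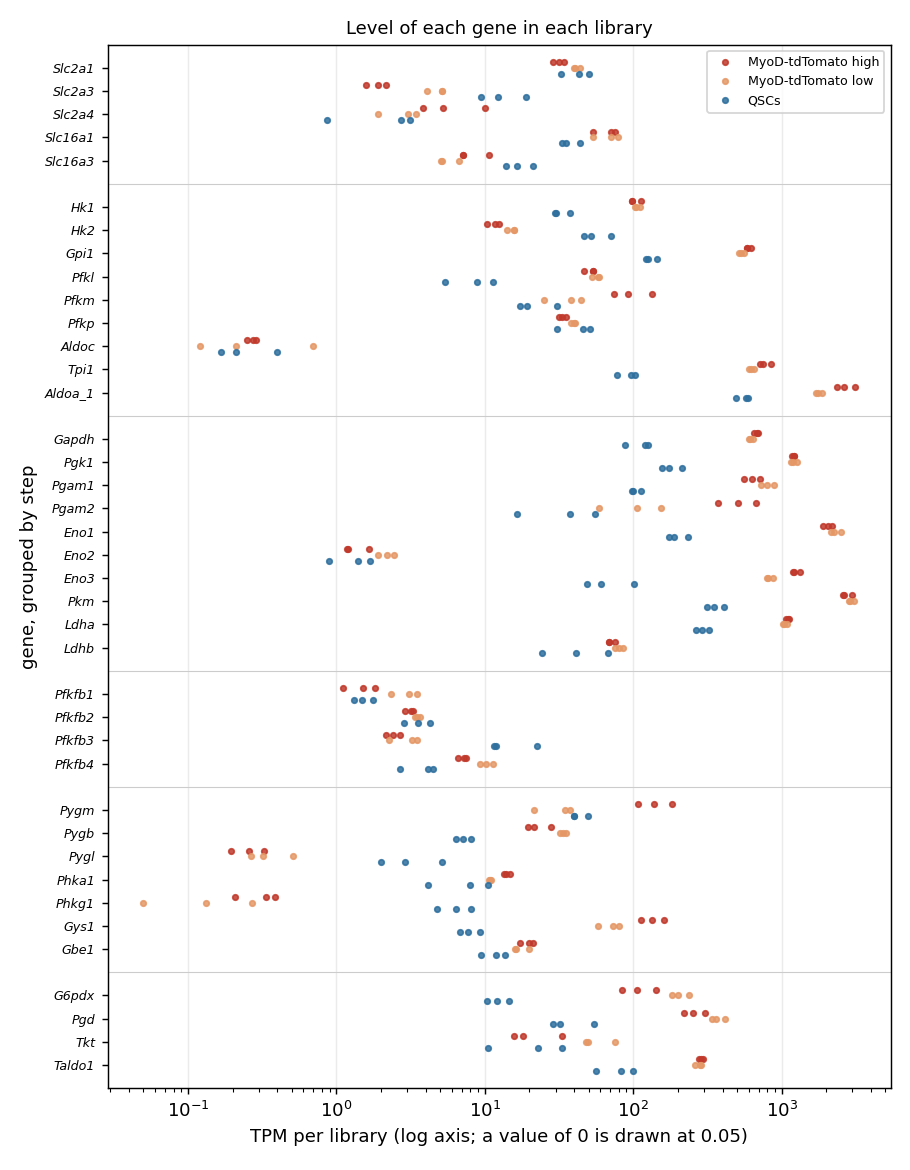
TPM of each gene (x axis, log scale) in each of the 9 libraries, with genes grouped by step from carriers at the top to the pentose phosphate pathway at the bottom; Aldoa_1 is the main *Aldoa* row. *Pkm*, *Aldoa*, *Eno1*, *Pgk1* and *Ldha* were at 1014 TPM or more in every cultured library and at 595 TPM or less in every QSC library, whereas *Hk2*, *Slc2a3*, *Slc16a3*, *Pfkfb3*, *Pygl* and *Phkg1* were highest in QSCs.

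The comparison of MyoD-tdTomato high with MyoD-tdTomato low asks how the sugar-handling genes differ between committed and less committed cultured cells. The genes called higher were the muscle glycogen phosphorylase *Pygm*, the muscle phosphoglycerate mutase *Pgam2*, the muscle phosphofructokinase *Pfkm* and the glycogen synthase *Gys1*. Most enzymes of the main glycolytic chain stayed within 1.5-fold.

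*Pygm* (chr19:6434429-6448489, plus strand, GRCm39) had 184, 108 and 139 TPM in the MyoD-tdTomato high libraries, 37.4, 21.5 and 34.7 TPM in the MyoD-tdTomato low libraries, and 39.6, 49.2 and 39.9 TPM in QSCs. The lowest MyoD-tdTomato high library lay above every other library, and MyoD-tdTomato low lay below QSCs. The change was 2.34 ± 0.25 (5.06-fold, adjusted p = 0.00131), and the call held without any 1 library (2.08 to 2.53). *Pgam2* (chr11:5751640-5753733, minus strand), which moves the phosphate of 3-phosphoglycerate, was at 677, 373 and 511 TPM in MyoD-tdTomato high, 154, 58.5 and 106 TPM in MyoD-tdTomato low, and 16.5, 55.2 and 37.5 TPM in QSCs. Its change was 2.42 ± 0.44 (5.37-fold, adjusted p = 0.00601). All 3 MyoD-tdTomato high libraries lay above the other 6.

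*Pfkm* (chr15:97990470-98030332, plus strand) makes the committing step of glycolysis in muscle, the phosphorylation of fructose 6-phosphate. It had 134, 74.0 and 92.4 TPM in MyoD-tdTomato high, 44.5, 25.2 and 38.0 TPM in MyoD-tdTomato low, and 19.2, 30.6 and 17.2 TPM in QSCs. Groups did not overlap between MyoD-tdTomato high and either of the others, and the change against MyoD-tdTomato low was 1.62 ± 0.28 (3.06-fold, adjusted p = 0.00454). *Gys1* (chr7:45084268-45106043, plus strand), which lengthens glycogen chains, had 161, 112 and 134 TPM in MyoD-tdTomato high, 79.8, 58.1 and 73.1 TPM in MyoD-tdTomato low, and 7.66, 6.78 and 9.31 TPM in QSCs. It was graded across the groups with no overlap, by 1.08 ± 0.22 between the cultured groups (2.12-fold, adjusted p = 0.00998).

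Of these calls, those of *Pgam2* and *Pfkm* were lost without MyoD-tdTomato high replicate 1 or 3 or MyoD-tdTomato low replicate 2 or 3, with adjusted p up to 0.0315 and 0.0231, and that of *Gys1* also without MyoD-tdTomato low replicate 1 (up to 0.056). All directions held. *Gys1* was also not called with background subtraction (adjusted p = 0.0148), filterByExpr (0.0127), no filter on low counts (0.0104), RLE factors (0.0116), upper-quartile factors (0.0129) or limma on log2(TPM + 0.1), *Pgam2* not without the filter (0.0271), and *Pfkm* and *Pgam2* not in a fit of the cultured libraries alone with no block (0.0186 and 0.0169), nor *Pfkm* with limma on log2(TPM + 0.1) (0.0107). The cultured libraries of the same number deviated together, and in a paired fit, which left out QSCs and took the replicate number as a block, 7 genes were called higher (8.63% of all genes then were) and 3 lower (6.48%). DESeq2 called 5 higher (6.11% of all genes it tested), the 4 above and *Eno3*. In the paired fit the adjusted p was 1.22e-09 for *Pygm*, 1.44e-08 for *Pgam2*, 8.24e-09 for *Pfkm* and 3.74e-08 for *Gys1*, and *Eno3*, *Slc2a4* and *Slc16a3* joined them as higher, with *G6pdx*, *Tkt* and *Slc2a3* lower. The paired fit changes both choices at once, and its pairing was inferred from these same counts and is not stated in the sources used here. With the block in all 9 libraries *Pygm*, *Pfkm* and *Gys1* were called higher, *G6pdx* and *Tkt* lower, and *Pgam2* was not called (adjusted p = 0.0109).

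*Eno3*, the muscle enolase (chr11:70548028-70553339, plus strand), had 1332, 1185 and 1216 TPM in MyoD-tdTomato high, 812, 876 and 799 TPM in MyoD-tdTomato low, and 48.9, 100.5 and 61.1 TPM in QSCs. The cultured groups did not overlap, yet edgeR over all 9 libraries did not call the change of 0.72 ± 0.19 (1.65-fold), without the block (adjusted p = 0.0304) or with it (0.0439). It was called by DESeq2 over all 9 libraries (adjusted p = 0.00749). By edgeR it was called in the cultured libraries alone, without the block (0.00167) or with it (3.75e-06). *Slc2a4*, the insulin-responsive carrier GLUT4, was low throughout, at 10.03, 3.80 and 5.21 TPM in MyoD-tdTomato high, 3.42, 1.90 and 3.03 TPM in MyoD-tdTomato low, and 3.11, 0.869 and 2.72 TPM in QSCs. MyoD-tdTomato high replicate 1 was its highest library by far, and the fitted 1.33 ± 0.53 gave an adjusted p of 0.157, which was 0.0653 with the block alone, 0.0542 in the cultured libraries alone and 0.000213 in the paired fit. *Slc16a3*, the lactate exporter MCT4, had 10.7, 7.09 and 7.09 TPM in MyoD-tdTomato high and 6.70, 5.15 and 5.09 TPM in MyoD-tdTomato low (0.69 ± 0.23, adjusted p = 0.0915, 0.0194 with the block in all 9 libraries, 0.0559 in the cultured libraries alone and 0.000432 in the paired fit).

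Beside the 0 genes called lower by edgeR, 6 had an unadjusted p under 0.05 with a negative change, and 3 were called lower by DESeq2 (3.69% of all genes tested were): *G6pdx*, *Tkt* and *Slc2a3*. *Tkt*, the transketolase of the pentose phosphate pathway, had 15.7, 33.1 and 18.2 TPM in MyoD-tdTomato high, 48.2, 75.6 and 49.5 TPM in MyoD-tdTomato low, and 22.7, 33.0 and 10.5 TPM in QSCs. The cultured groups did not overlap, and replicate 2 was the highest library of each; the change was -1.24 ± 0.34 (adjusted p = 0.0377, 0.0044 with the block in all 9 libraries and 2.52e-07 in the paired fit). *G6pdx*, which commits glucose 6-phosphate to the pathway and makes NADPH, had 83.7, 142 and 105 TPM in MyoD-tdTomato high, 182, 237 and 200 TPM in MyoD-tdTomato low, and 10.4, 14.5 and 12 TPM in QSCs. Its change of -0.78 ± 0.18 (adjusted p = 0.0176, 0.0048 with the block in all 9 libraries and 3.69e-06 in the paired fit) was called without MyoD-tdTomato high replicate 2, at an adjusted p of 0.00703. *Slc2a3*, the high-affinity glucose carrier GLUT3, was at 1.90, 2.16 and 1.58 TPM in MyoD-tdTomato high and 5.18, 4.09 and 5.15 TPM in MyoD-tdTomato low (-1.22 ± 0.29, adjusted p = 0.0199, 0.0225 with the block in all 9 libraries, 0.00348 in the cultured libraries alone and 0.000147 in the paired fit).

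The rest of glycolysis differed little between the cultured groups. *Eno1*, *Pkm*, *Pfkl*, *Hk1* and *Pgk1* had changes of -0.04 ± 0.10, 0.02 ± 0.10, -0.01 ± 0.18, 0.09 ± 0.12 and 0.13 ± 0.12, with adjusted p of 0.604 or more. *Tpi1*, triose phosphate isomerase, had 852, 716 and 754 TPM in MyoD-tdTomato high and 649, 624 and 607 TPM in MyoD-tdTomato low, without overlap, but changed by only 0.44 ± 0.12 and was not called (adjusted p = 0.0323). *Gpi1*, *Gapdh* and *Ldha* were 0.29 ± 0.13, 0.26 ± 0.09 and 0.20 ± 0.09 higher and also not called. *Pgam1*, the non-muscle partner of *Pgam2*, had -0.22 ± 0.11 (adjusted p = 0.285), and *Pgd*, the enzyme after *G6pdx* and its lactonase, had -0.40 ± 0.18 (adjusted p = 0.208).

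Aldolase A was carried by 2 neighbouring rows with the same gene name. The main row (chr7:126394406-126399923, minus strand) had 79246, 62730 and 65142 counts in MyoD-tdTomato high, 47914, 41422 and 45088 counts in MyoD-tdTomato low, and 12537, 5524 and 10540 counts in QSCs. It was called higher in all 3 comparisons, by 0.74 ± 0.13 in MyoD-tdTomato high against MyoD-tdTomato low (adjusted p = 0.00592), by 1.63 ± 0.14 in MyoD-tdTomato high against QSCs (2.39e-06) and by 0.89 ± 0.14 in MyoD-tdTomato low against QSCs (0.000193). The comparison of the cultured groups lost its call without any 1 of the libraries except MyoD-tdTomato high replicate 2 (adjusted p up to 0.0347), and had an adjusted p of 2.67e-06 in the paired fit. The other row held 28 counts or fewer in every library.

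Marker genes of mature fibres and of committed myoblasts moved with these changes. Of 12 myofibre genes, 7 were called higher and 0 lower in MyoD-tdTomato high against MyoD-tdTomato low, where 3.88% and 1.23% of all genes were. Their summed level was 9970 to 19200 TPM in MyoD-tdTomato high, 911 to 3270 TPM in MyoD-tdTomato low and 446 to 1130 TPM in QSCs. None of these 12 was at 0 in a whole group. Of 9 genes of committed and differentiating myoblasts, 9 were called higher and 0 lower in the same comparison (3.88% and 1.23% of all genes). They summed to 9220 to 15600 TPM in MyoD-tdTomato high, 1740 to 3060 TPM in MyoD-tdTomato low and 791 to 850 TPM in QSCs. The list of 9 holds *Myod1*, whose locus carried the reporter used for the sort. *Ckm*, the muscle creatine kinase, had 142, 77.0 and 121 TPM in MyoD-tdTomato high, 22.1, 5.02 and 13.0 TPM in MyoD-tdTomato low, and 26.4, 62.3 and 63.8 TPM in QSCs. Within each cultured group, replicate 2 was the lowest library for *Ckm*, *Pygm*, *Pgam2*, *Pfkm* and *Gys1* alike. The part of cells further along in differentiation in these results was not tested, and in bulk libraries more cells of a kind and more RNA per cell cannot be told apart.

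The 300 bases around the start of 4 of these genes are shown because these genes were called higher in the paired fit and hold CAGCTG. *Pfkm* and *Slc16a3*, also called higher there, do not hold it and are not shown. The main *Aldoa* row was called higher there too, and 1 of the 3 *Aldoa* windows holds CAGCTG, but it is not shown. Capitals mark CAGCTG, an E-box of the CANNTG form that the MyoD family is known to bind, and, in *Pgam2*, 1 match to the MEF2 motif. The sequences are from RefSeq (GRCm38.p6) and read 5′ to 3′ on the gene's strand, from 250 bases before the start to 50 after it.
Pygm, chr19:6384158-6384457, plus strand: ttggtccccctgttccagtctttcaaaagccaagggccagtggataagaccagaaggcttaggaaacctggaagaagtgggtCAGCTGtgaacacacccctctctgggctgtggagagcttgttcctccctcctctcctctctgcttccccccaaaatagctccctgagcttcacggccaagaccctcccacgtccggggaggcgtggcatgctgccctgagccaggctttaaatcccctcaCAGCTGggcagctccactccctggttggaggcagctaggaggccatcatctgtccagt
Pgam2, chr11:5803747-5804046, minus strand: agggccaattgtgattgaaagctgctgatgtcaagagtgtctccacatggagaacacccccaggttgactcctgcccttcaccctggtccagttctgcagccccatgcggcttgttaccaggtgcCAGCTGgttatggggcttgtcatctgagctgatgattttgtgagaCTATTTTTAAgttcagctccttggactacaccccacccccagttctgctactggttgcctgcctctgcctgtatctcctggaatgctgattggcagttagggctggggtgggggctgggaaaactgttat
Gys1, chr7:45434589-45434888, plus strand: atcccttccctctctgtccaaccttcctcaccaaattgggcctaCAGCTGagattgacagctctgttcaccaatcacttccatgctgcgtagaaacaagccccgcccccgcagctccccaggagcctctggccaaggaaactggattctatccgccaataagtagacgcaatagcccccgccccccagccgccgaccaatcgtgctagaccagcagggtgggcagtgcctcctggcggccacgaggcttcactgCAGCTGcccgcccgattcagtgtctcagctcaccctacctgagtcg
Eno3, chr11:70656926-70657225, plus strand: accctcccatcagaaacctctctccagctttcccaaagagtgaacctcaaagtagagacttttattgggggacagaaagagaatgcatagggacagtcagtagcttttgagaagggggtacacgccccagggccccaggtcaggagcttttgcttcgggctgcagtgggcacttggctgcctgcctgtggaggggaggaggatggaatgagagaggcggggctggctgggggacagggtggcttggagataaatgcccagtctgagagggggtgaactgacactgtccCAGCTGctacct

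Counted with the start base as 0, CAGCTG began at -168 and -8 in *Pygm*, at -125 in *Pgam2*, at -206 and 4 in *Gys1* and at 38 in *Eno3*, and the MEF2 match of *Pgam2* began at -80. Of the 39 genes, 37 had windows in the table (all but *Slc2a3* and *Slc2a4*), 55 windows in all. CAGCTG, which reads the same on both strands, stood in 11 of the 37 (29.7%), against 18.3% of all 27025 genes with a window, or in 20% of their windows against 16.3% of all windows, and *Pfkm* had it in none of its windows. Besides the 4 genes shown, *Gpi1*, *Aldoa*, *Pkm*, *Pfkfb1*, *Pfkfb2*, *Phka1* and *Taldo1* held CAGCTG. Except for the main *Aldoa* row, none of these was called between the cultured groups in the main or the paired fit. The MEF2 motif was in *Pgam2* and *Pfkfb1* (5.41%, against 2.16%). *Pfkfb1*, which held both motifs, changed by -0.86 ± 0.38 in MyoD-tdTomato high against MyoD-tdTomato low (edgeR, adjusted p = 0.205). ACGTG or GCGTG, the core of the element that hypoxia-inducible factors bind, was found on either strand in 30 of the 37 (81.1%, against 46.7%), and in 72.7% of their windows against 43.8% of all windows. CACGTG, an E-box that contains ACGTG, was in 5 (13.5%, against 8.09%). A match is a description of the letters only, these shares were not tested, and CAGCTG and the MEF2 motif were searched with the changes above already known.

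**Figure D3:**
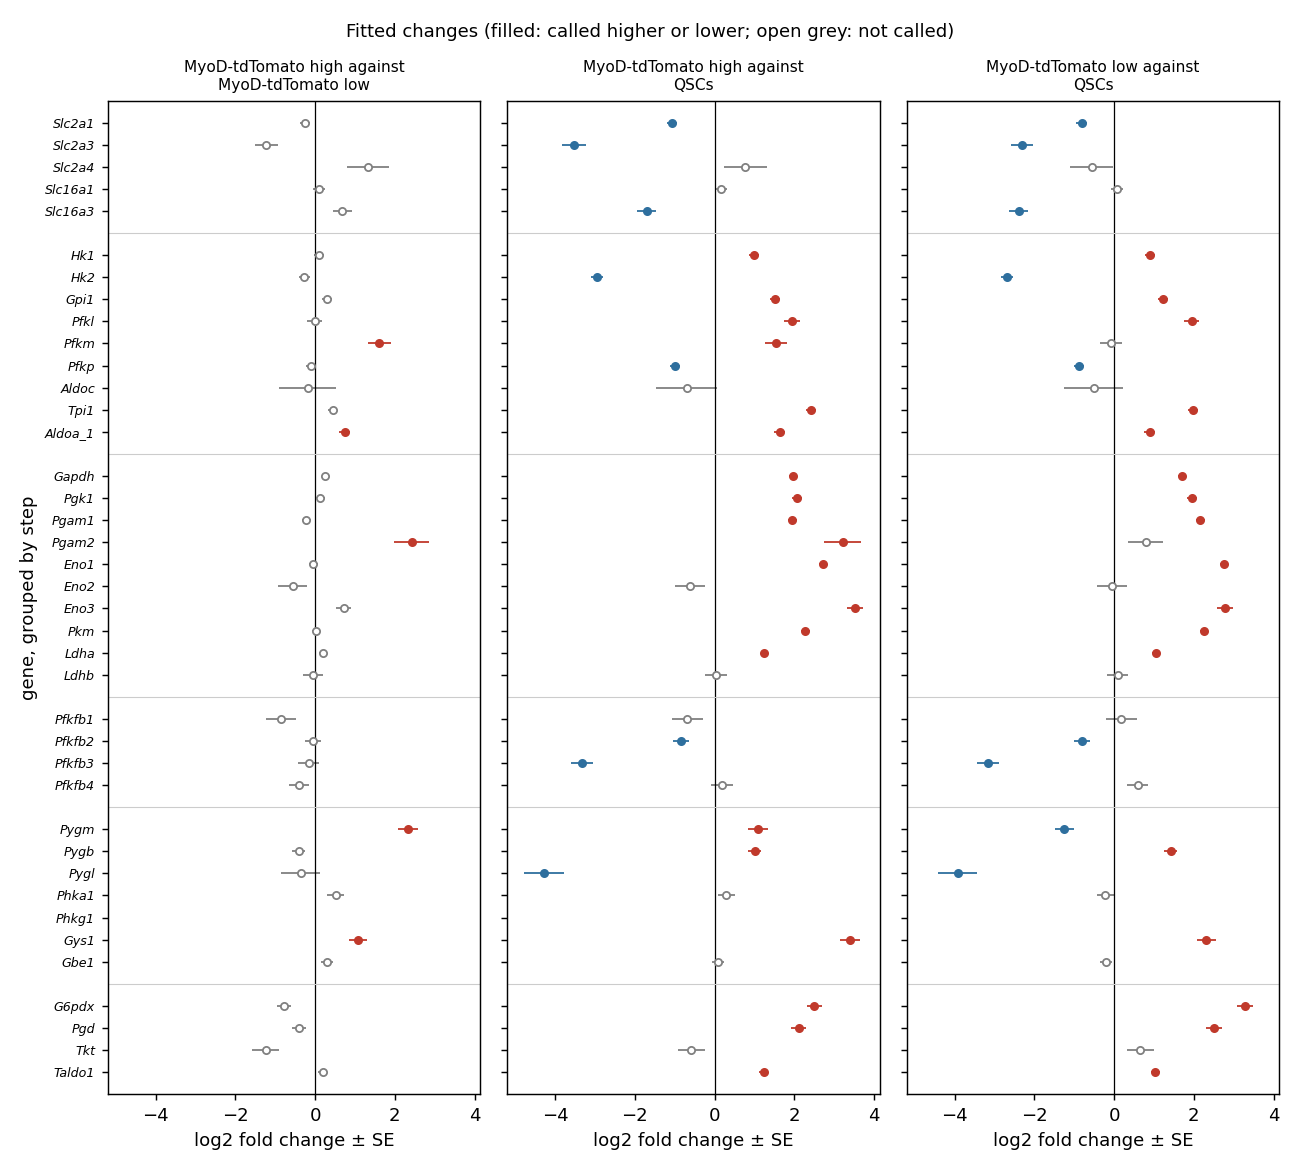
Fitted log2 fold change ± SE (x axis) of each gene in the 3 comparisons, in the gene order of the plot of TPM by library; red and blue filled points were called higher and lower, and open grey points were not called. *Pygm*, *Pgam2*, *Pfkm*, *Gys1* and the main *Aldoa* row are the filled points of MyoD-tdTomato high against MyoD-tdTomato low, while the comparisons with QSCs hold called genes on both sides of 0. *Phkg1* was not fitted.

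The comparisons with QSCs ask how the genes differ between cultured and freshly isolated stem cells. The main chain of glycolysis was higher in both cultured groups, from glucose 6-phosphate isomerase to lactate dehydrogenase A. Of 10 genes of lower glycolysis, 8 were called higher in MyoD-tdTomato high and 7 in MyoD-tdTomato low, and 0 were called lower in either (unadjusted p under 0.05 with a negative change in 0, and 0 by DESeq2). In upper glycolysis, 5 of 8 were called higher and 2 lower in MyoD-tdTomato high, and 4 were called higher and 2 lower in MyoD-tdTomato low. Over all genes tested, 24.6% were called higher and 26.4% lower in MyoD-tdTomato high, and 22.6% and 26.5% in MyoD-tdTomato low.

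The largest of these changes was that of *Eno3*, with 3.52 ± 0.21 in MyoD-tdTomato high (11.4-fold, adjusted p = 1.83e-07) and 2.79 ± 0.20 in MyoD-tdTomato low (6.93-fold; 8.22e-07). *Eno1*, the widespread enolase, had 1912, 2184 and 2056 TPM in MyoD-tdTomato high, 2161, 2523 and 2264 TPM in MyoD-tdTomato low, and 187, 234 and 173 TPM in QSCs. It was higher by 2.72 ± 0.11 and 2.76 ± 0.11 in the cultured groups (adjusted p = 1.78e-08 and 1.91e-08). *Pkm*, pyruvate kinase, was the most abundant of these transcripts in MyoD-tdTomato low, at 2604, 2961 and 2629 TPM in MyoD-tdTomato high, 2863, 3078 and 2899 TPM in MyoD-tdTomato low, and 352, 406 and 313 TPM in QSCs, with changes of 2.28 ± 0.10 and 2.26 ± 0.10 (adjusted p = 3.88e-08 and 4.9e-08).

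*Tpi1* was 5.33-fold and *Pgk1*, phosphoglycerate kinase, 4.20-fold higher in MyoD-tdTomato high than in QSCs, and 3.93-fold and 3.86-fold higher in MyoD-tdTomato low. *Gapdh*, often used as a reference transcript, averaged 675 ± 23.3, 620 ± 17.4 and 111 ± 20.7 TPM (SD, n = 3) in MyoD-tdTomato high, MyoD-tdTomato low and QSCs, and was higher by 1.96 ± 0.10 and 1.70 ± 0.10 in the cultured groups. *Pgam1* was higher by 1.95 ± 0.12 and 2.16 ± 0.12, *Gpi1* by 1.52 ± 0.13 and 1.23 ± 0.13, and *Pfkl*, the liver-type phosphofructokinase, by 1.94 ± 0.19 and 1.95 ± 0.19. *Ldha*, which makes lactate, was higher by 1.25 ± 0.09 and 1.05 ± 0.09. Each of these calls held without any 1 library.

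Muscle forms did not all follow 1 pattern against QSCs. In the main fit, *Eno3* was called higher in both cultured groups, *Hk2* was called lower in both, and *Phka1* was called in neither. *Phkg1* had fewer counts in both than in QSCs. *Slc2a4* was called in neither (0.77 ± 0.54 in MyoD-tdTomato high, adjusted p = 0.223, and -0.56 ± 0.54 in MyoD-tdTomato low, adjusted p = 0.382). *Pgam2* was 9.31-fold higher in MyoD-tdTomato high (3.22 ± 0.47, adjusted p = 0.000129) and not called in MyoD-tdTomato low (0.79 ± 0.44, adjusted p = 0.136). *Pfkm* was 2.92-fold higher in MyoD-tdTomato high (1.55 ± 0.28, adjusted p = 0.000618), and had -0.07 ± 0.28 in MyoD-tdTomato low (adjusted p = 0.839). *Pygm* was called in opposite directions, higher in MyoD-tdTomato high (1.09 ± 0.25, adjusted p = 0.00251) and lower in MyoD-tdTomato low (-1.25 ± 0.25, adjusted p = 0.00121). The higher call was lost without QSCs replicate 1 or MyoD-tdTomato high replicate 1 (adjusted p up to 0.0134), and the lower call was absent on TPM (-0.48). *Ldhb*, *Eno2* and *Aldoc*, the heart lactate dehydrogenase, the neuronal enolase and the brain aldolase, were not called in either comparison of the main fit. *Aldoc* held 22 counts or fewer in every library, with 6, 2 and 11 in QSCs where the background estimate was 5.79, 12.8 and 6.9.

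The main form of hexokinase differed between cultured cells and QSCs. *Hk2* (chr6:82702006-82751435, minus strand), the inducible hexokinase of muscle and fat, had 10.3, 12.5 and 11.7 TPM in MyoD-tdTomato high, 14.1, 15.7 and 15.8 TPM in MyoD-tdTomato low, and 70.6, 51.7 and 46.6 TPM in QSCs. It was 7.74-fold lower in MyoD-tdTomato high (-2.95 ± 0.15, adjusted p = 8.73e-08) and 6.43-fold lower in MyoD-tdTomato low (-2.68 ± 0.15; 1.63e-07). *Hk1*, the widespread hexokinase, had 98.7, 113 and 97.6 TPM in MyoD-tdTomato high, 103, 111 and 105 TPM in MyoD-tdTomato low, and 37.7, 30.0 and 29.9 TPM in QSCs, and was higher by 0.99 ± 0.12 and 0.90 ± 0.12 (adjusted p = 4.05e-05 and 8.73e-05). The summed TPM of the pair lay at 109 to 126 in MyoD-tdTomato high, at 117 to 127 in MyoD-tdTomato low and at 76.5 to 108 in QSCs, a narrower gap than that of either gene alone.

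Carriers were lower or not called against QSCs, with 3 of 5 called lower in both comparisons and 0 higher (unadjusted p under 0.05 with a positive change in 0, and 0 by DESeq2). Of all genes, 26.4% were called lower and 24.6% higher in MyoD-tdTomato high, and 26.5% and 22.6% in MyoD-tdTomato low. *Slc2a3* had 1.58 to 2.16 TPM in MyoD-tdTomato high and 4.09 to 5.18 TPM in MyoD-tdTomato low, against 19.0, 9.39 and 12.3 TPM in QSCs, with changes of -3.53 ± 0.30 and -2.31 ± 0.29 (adjusted p = 2.79e-06 and 4.43e-05). *Slc16a3*, at 5.09 to 10.7 TPM in the cultured libraries, had 21.1, 16.5 and 13.9 TPM in QSCs, with no overlap, and changes of -1.70 ± 0.24 in MyoD-tdTomato high and -2.39 ± 0.24 in MyoD-tdTomato low (adjusted p = 9.17e-05 and 1.02e-05). *Slc2a1*, the widespread carrier GLUT1, had 31.8, 34.0 and 28.9 TPM in MyoD-tdTomato high, 39.9, 43.5 and 40.5 TPM in MyoD-tdTomato low, and 50.4, 43.4 and 32.7 TPM in QSCs; its calls of -1.07 ± 0.13 and -0.82 ± 0.13 were not made on TPM (-0.39 and -0.009). *Slc16a1*, the lactate carrier MCT1, had 0.17 ± 0.15 and 0.07 ± 0.15 and was not called in the main fit.

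Fructose 2,6-bisphosphate, the strongest known activator of phosphofructokinase, is made and broken by the 4 PFKFB enzymes, and of these *Pfkfb3* differed most. It had 2.42, 2.67 and 2.15 TPM in MyoD-tdTomato high, 2.27, 3.47 and 3.21 TPM in MyoD-tdTomato low, and 22.6, 11.95 and 11.5 TPM in QSCs. The QSC libraries lay above all others, and *Pfkfb3* was 10.04-fold lower in MyoD-tdTomato high (-3.33 ± 0.28, adjusted p = 2.66e-06) and 8.96-fold lower in MyoD-tdTomato low (-3.16 ± 0.28; 4.04e-06). *Pfkfb2* had -0.84 ± 0.20 and -0.80 ± 0.20 (adjusted p = 0.00399 and 0.00551), but each call was lost without any 1 of the 3 cultured libraries (up to 0.0253 and 0.0311), and on TPM it had -0.14 and -0.004. *Pfkfb1* and *Pfkfb4* were not called in any comparison of the main fit, but *Pfkfb4* was called higher against QSCs on TPM (0.776 and 1.257). *Pfkp*, the platelet-type phosphofructokinase, had 31.6 to 35.4 TPM in MyoD-tdTomato high, 37.9 to 40.6 TPM in MyoD-tdTomato low and 30.7 to 50.9 TPM in QSCs, and was called lower on counts only (-0.99 ± 0.13 and -0.89 ± 0.13).

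Glycogen genes differed in both directions. *Gys1* was 10.6-fold higher in MyoD-tdTomato high (3.40 ± 0.25, adjusted p = 7.7e-07) and 4.98-fold higher in MyoD-tdTomato low (2.32 ± 0.24; 1.08e-05) than in QSCs. *Pygb*, the brain-type phosphorylase, had 19.7, 27.8 and 21.5 TPM in MyoD-tdTomato high, 32.0, 35.1 and 33.5 TPM in MyoD-tdTomato low, and 6.37, 8.07 and 7.16 TPM in QSCs, and was higher by 1.01 ± 0.16 and 1.42 ± 0.16 (adjusted p = 0.000253 and 2.39e-05). *Pygl*, the liver-type phosphorylase, was at 0.508 TPM or less in all cultured libraries and at 2.89, 5.16 and 1.99 TPM in QSCs, or 92, 70 and 62 counts where the chemosensory background would give about 6.50, 14.4 and 7.75. Its changes were -4.28 ± 0.50 and -3.92 ± 0.49 (adjusted p = 2.53e-05 and 4.3e-05).

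*Phkg1*, the catalytic subunit of phosphorylase kinase in muscle, had 10, 12 and 6 counts in MyoD-tdTomato high, 4, 0 and 8 counts in MyoD-tdTomato low, and 121, 88 and 160 counts in QSCs, where the background estimate was 5.19, 11.5 and 6.19 counts. QSCs stood above the cultured libraries although they had fewer counts in total. The filter filterByExpr keeps it, but only through its counts in QSCs, so a call against QSCs adds nothing to these counts and is not used. The fitted changes there were -4.94 ± 0.73 in MyoD-tdTomato high and -6.25 ± 0.80 in MyoD-tdTomato low. Between the cultured groups, 1.31 ± 0.76 was not called (edgeR, adjusted p = 0.387). *Phka1*, the regulatory subunit of muscle, and *Gbe1*, the branching enzyme, were not called in any comparison of the main fit, with changes between -0.22 and 0.52. On TPM both were called higher in MyoD-tdTomato high against QSCs (0.895 and 0.697).

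In the pentose phosphate pathway, 3 of 4 genes were called higher in each comparison with QSCs, where 24.6% and 22.6% of all genes were in MyoD-tdTomato high and MyoD-tdTomato low. *G6pdx* was 5.66-fold higher in MyoD-tdTomato high (2.502 ± 0.192, adjusted p = 1.21e-06) and 9.69-fold higher in MyoD-tdTomato low (3.28 ± 0.20; 2.44e-07). *Pgd* had 219, 303 and 253 TPM in MyoD-tdTomato high, 341, 418 and 360 TPM in MyoD-tdTomato low, and 28.7, 54.7 and 32.4 TPM in QSCs, and was higher by 2.11 ± 0.19 and 2.51 ± 0.19. *Taldo1*, transaldolase, was higher by 1.23 ± 0.12 and 1.04 ± 0.12. *Tkt* was not called in the main fit, with -0.59 ± 0.34 in MyoD-tdTomato high and 0.66 ± 0.34 in MyoD-tdTomato low. In an edgeR fit of MyoD-tdTomato low and QSCs alone with the replicate block, it was called higher (0.80, adjusted p = 0.0049). Without the block, the same fit did not call it (adjusted p = 0.0656). The replicate numbers of QSCs and cultured libraries pair nothing known here, as libraries of the same number correlated by only -0.0457 to 0.00308. The call with the block is therefore not relied on.

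Leaving out QSCs replicate 2, the shallowest library with the most background, left 19 genes called higher and 8 lower in MyoD-tdTomato high against QSCs, and 16 higher and 9 lower in MyoD-tdTomato low against QSCs. Marker lists of several cell types also differed between QSCs and cultured cells, not all in 1 direction. The 8 muscle stem cell genes summed to 784 to 830, 834 to 1010 and 2280 to 3170 TPM in MyoD-tdTomato high, MyoD-tdTomato low and QSCs. In the same groups, 7 pericyte and smooth muscle genes summed to 1320 to 2430, 406 to 994 and 465 to 594 TPM. Likewise 7 Schwann and neural genes summed to 239 to 321, 134 to 165 and 86.4 to 143 TPM. Of each of these 2 lists, 1 gene was called higher in MyoD-tdTomato high, and 3 and 4 lower. Of the 8 endothelial and 8 myeloid genes tested, all were called lower in MyoD-tdTomato high, and 8 endothelial and 2 myeloid genes were called lower in MyoD-tdTomato low. Of the 12 myofibre genes tested, 6 were called higher and 3 lower in MyoD-tdTomato high, and 0 higher and 5 lower in MyoD-tdTomato low. Over all genes tested, 24.6% and 22.6% were called higher and 26.4% and 26.5% lower in these groups than in QSCs. The 9 fibroblast genes summed to 527 to 614 TPM in MyoD-tdTomato high, 692 to 997 TPM in MyoD-tdTomato low and 1320 to 1980 TPM in QSCs. The 5 neutrophil genes summed to at most 0.554 TPM in cultured libraries and 11.3 to 30.4 TPM in QSCs. Of these endothelial, myeloid and neutrophil lists, *Cldn5*, *Ptprc* and *S100a8* were at 0 in all MyoD-tdTomato high libraries. The part of other cells or of fibre RNA in the levels of *Slc2a3*, *Hk2*, *Slc16a3*, *Pfkfb3*, *Pygl*, *Phkg1* and *Pygm* was not tested.

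Shares within families, taken from TPM, describe which gene supplied a step. *Pgam2* made up 44.7% ± 10.4 of the phosphoglycerate mutase TPM in MyoD-tdTomato high, 11.8% ± 5.64 in MyoD-tdTomato low and 24.9% ± 9.54 in QSCs (SD, n = 3). *Pfkm* made up 53.4% ± 7.77, 27.0% ± 6.01 and 30.6% ± 6.33 of phosphofructokinase in the same groups, and *Eno3* 37.8% ± 3, 26.4% ± 0.805 and 25.5% ± 4.68 of enolase. For all 3, MyoD-tdTomato high lay above the other groups without overlap, and MyoD-tdTomato low overlapped QSCs. *Pygm* was 85.4% ± 5.49 of phosphorylase in MyoD-tdTomato high, 47.3% ± 8.51 in MyoD-tdTomato low and 80.4% ± 1.39 in QSCs, so that MyoD-tdTomato low stood alone and the other groups overlapped.

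*Hk2* was 10% ± 0.612 of hexokinase in MyoD-tdTomato high, 12.5% ± 0.519 in MyoD-tdTomato low and 63.1% ± 2.13 in QSCs, a reversal of the main form with no overlap among the groups. *Pfkfb3* was 17.1% ± 0.91, 15% ± 1.81 and 61.9% ± 8.27 of its family, and *Slc16a3* was 11.5% ± 4.52, 7.96% ± 2.74 and 31.4% ± 5.25 of the lactate carrier pair. *Slc2a4* reached 15.7% ± 6.79 of the 3 glucose carriers in MyoD-tdTomato high, against 5.70% ± 1.67 in MyoD-tdTomato low and 3.87% ± 2.07 in QSCs. *Ldhb* was 6.06% ± 0.349 and 7.13% ± 0.663 of lactate dehydrogenase in MyoD-tdTomato high and MyoD-tdTomato low, against 12.9% ± 4.89 in QSCs, and MyoD-tdTomato low and QSCs overlapped. *Aldoc* averaged 0.0101%, 0.0197% and 0.0481% of aldolase in MyoD-tdTomato high, MyoD-tdTomato low and QSCs. The smallest p that the two-sided exact permutation test allows with 3 against 3 libraries is 0.1, so none of the 30 comparisons could pass 0.05; the lowest adjusted value (Benjamini-Hochberg over the 30) was 0.15.

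**Figure D4:**
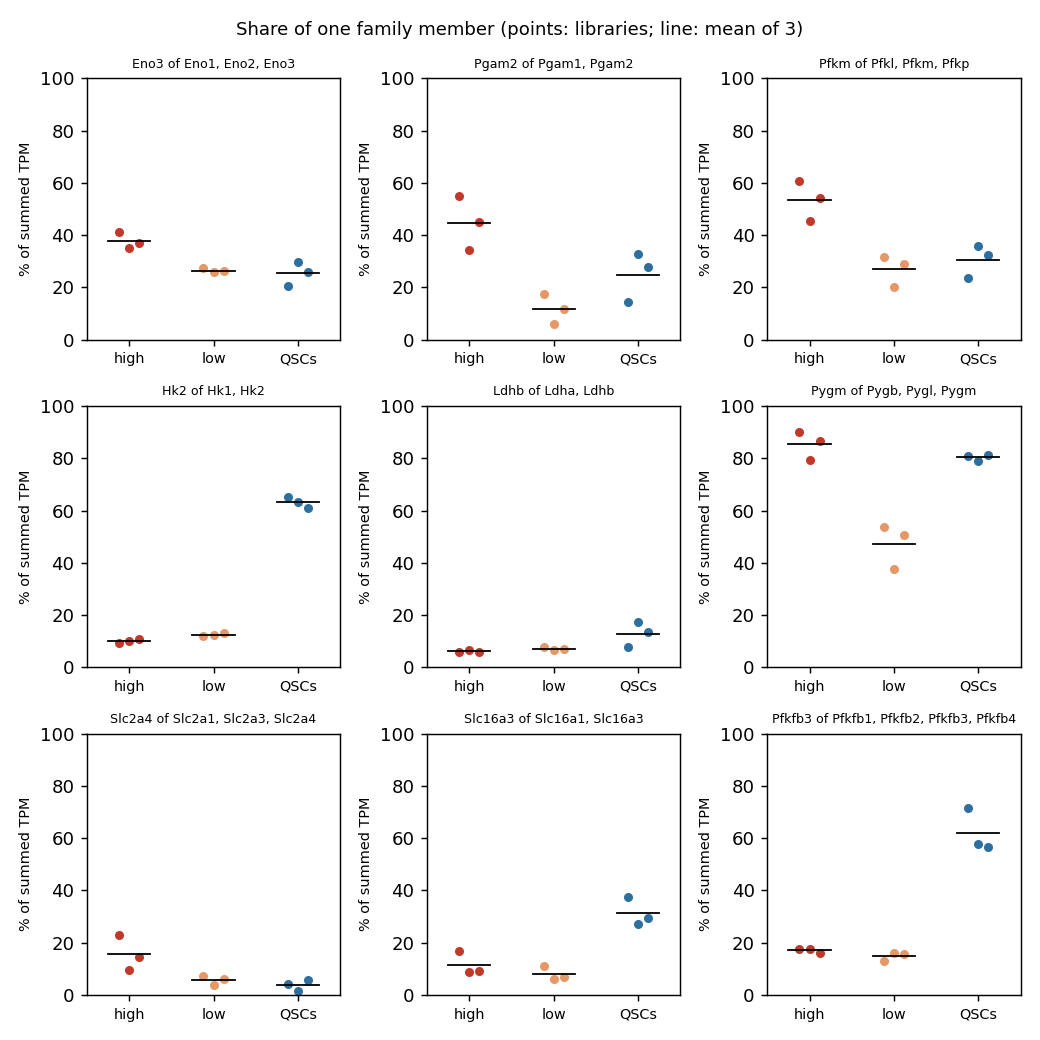
Share of 1 gene in the summed TPM of its family (y axis, percent, from 0 to 100) in each library of MyoD-tdTomato high, MyoD-tdTomato low and QSCs; points are libraries and the line is the mean of 3. *Pgam2*, *Pfkm* and *Eno3* were highest in MyoD-tdTomato high (means of 44.7%, 53.4% and 37.8%), *Pygm* was lowest in MyoD-tdTomato low (47.3%), and *Hk2* and *Pfkfb3* were the larger share in QSCs alone (63.1% and 61.9%).

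Further genes of the same pathways were read from lists of their known members. Of 17 other glycogen genes tested, 4 were called higher and 0 lower in MyoD-tdTomato high against MyoD-tdTomato low, where 3.88% and 1.23% of all genes were. The list median was 0.59 beside 0.001 over all genes (8 had an unadjusted p under 0.05 upward and 0 downward, and DESeq2 called 0 lower). Among those called higher were *Stbd1*, which tethers glycogen to membranes (1.45, adjusted p = 0.00185), and *Phka2* and *Phkb*, subunits of phosphorylase kinase (1.10 and 1.06, adjusted p = 0.00412 and 0.0052). *Stbd1* had 135, 91.3 and 116 TPM in MyoD-tdTomato high, 50.1, 39.3 and 48.5 TPM in MyoD-tdTomato low, and 24.6, 37.2 and 29.7 TPM in QSCs. Each of these 3 calls was lost without MyoD-tdTomato high replicate 1 or 3 or MyoD-tdTomato low replicate 3, that of *Phka2* also without MyoD-tdTomato low replicate 2, and that of *Phkb* also without MyoD-tdTomato low replicate 1 or 2, with adjusted p up to 0.0345, and all 3 held in the paired fit. *Phkb* was not called on TPM (0.819). Against QSCs, 6 were called higher and 2 lower in MyoD-tdTomato high (24.6% and 26.4% of all genes were). In MyoD-tdTomato low, 4 were called higher and 4 lower (22.6% and 26.5% of all genes). Glycogenin (*Gyg*), *Pgm1* and *Phka2* were higher in both cultured groups, by 1.71, 1.73 and 2.27 in MyoD-tdTomato high and by 0.95, 1.16 and 1.17 in MyoD-tdTomato low, while *Pgm2* was called lower in both (-1.05 and -0.87), not on TPM (-0.365 and -0.058). *Gyg* in MyoD-tdTomato low was lost without QSCs replicate 3 or MyoD-tdTomato low replicate 1 (adjusted p up to 0.0121), and *Pgm1* without MyoD-tdTomato low replicate 1 (0.013).

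Of 20 regulators of glycolytic genes, 0 were called higher and 1 lower in MyoD-tdTomato high against MyoD-tdTomato low, where 3.88% and 1.23% of all genes were. An unadjusted p under 0.05 was found in 5 upward and 2 downward, and DESeq2 called 2 and 1. Against QSCs, 7 were called higher and 10 lower in MyoD-tdTomato high (24.6% and 26.4% of all genes were). In MyoD-tdTomato low, 5 were called higher and 10 lower (22.6% and 26.5% of all genes). *Myc*, known to drive genes of glycolysis and growth, had 27.1, 43.4 and 30.5 TPM in MyoD-tdTomato high, 58.4, 73.5 and 57.8 TPM in MyoD-tdTomato low, and 514, 496 and 409 TPM in QSCs. The groups did not overlap, and the changes were -0.78 ± 0.16 between the cultured groups (adjusted p = 0.00957), -4.48 ± 0.18 in MyoD-tdTomato high against QSCs and -3.70 ± 0.17 in MyoD-tdTomato low against QSCs. The call between the cultured groups was lost without any 1 library but MyoD-tdTomato high replicate 2 (adjusted p up to 0.0568) and was 7.03e-06 in the paired fit. *Esrra*, a nuclear receptor of energy metabolism, was higher by 1.83 ± 0.19 and 1.64 ± 0.19 against QSCs. *Hif1a*, a subunit of the hypoxia-inducible factor, was called lower by counts (-0.83 ± 0.12 and -0.94 ± 0.12) but not by TPM (-0.17 and -0.15).

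Where pyruvate enters mitochondria, 0 of 14 genes were called in MyoD-tdTomato high against MyoD-tdTomato low, where 3.88% of all genes were called higher and 1.23% lower. An unadjusted p under 0.05 was found in 7 upward and 0 downward. DESeq2 called 0, although 2 were called higher in the paired fit (8.63% of all genes then were). Against QSCs, 6 were called higher and 3 lower in MyoD-tdTomato high (24.6% and 26.4% of all genes were). In MyoD-tdTomato low, 3 were called higher and 2 lower (22.6% and 26.5% of all genes). *Dlat*, a core subunit of pyruvate dehydrogenase, was higher by 1.47 and 1.19, and *Pdk4*, a kinase that turns the complex off, had 56.6, 65.2 and 59.4 TPM in MyoD-tdTomato high, 79.4, 84.7 and 75.8 TPM in MyoD-tdTomato low, and 157, 118 and 104 TPM in QSCs (-1.72 ± 0.14 and -1.45 ± 0.14, adjusted p = 1.7e-06 and 6.36e-06). *Pdk3*, another such kinase, went the other way, by 2.02 and 2.09. Of 6 other glycolytic genes and brakes tested, *Tigar*, which lowers fructose 2,6-bisphosphate, was higher by 2.47 ± 0.33 and 2.42 ± 0.33 in the cultured groups (adjusted p = 7.97e-05 and 9.64e-05), as were *Gpd2* and *Minpp1*, and *Gpd1* was called lower in MyoD-tdTomato low (-2.89, adjusted p = 0.00074).

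Of 9 other pentose phosphate genes, 0 were called between the cultured groups (unadjusted p under 0.05 in 0; 0 by DESeq2), and 3 were called higher and 1 lower in each comparison with QSCs, where 24.6% and 22.6% of all genes were called higher and 26.4% and 26.5% lower in MyoD-tdTomato high and MyoD-tdTomato low. The isomerase *Rpia* was called lower (-1.43 ± 0.19 and -1.13 ± 0.19), in MyoD-tdTomato low not on TPM (-0.301), while the epimerase *Rpe* was higher by 1.02 and 0.92. The *Rpe* calls were lost without MyoD-tdTomato high replicate 1 (adjusted p = 0.0103) and without any 1 MyoD-tdTomato low library (up to 0.0163). Of 10 other carriers and partners, 3 were called higher and 3 lower in MyoD-tdTomato high against QSCs, and 2 higher and 3 lower in MyoD-tdTomato low. *Bsg*, the chaperone of lactate carriers and the most abundant of the list at a mean of 531 TPM, was higher by 0.97 and 0.64, of which the MyoD-tdTomato low call was lost without QSCs replicate 2. The sugar carriers *Slc2a10* (-2.49 and -2.43) and *Slc2a12* (-1.34 and -1.15) were called lower in both, *Slc2a12* not on TPM (-0.624 and -0.345) and in MyoD-tdTomato low not without its replicate 2 or 3 (adjusted p up to 0.0116).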

How the data were processed

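Poly(A) RNA was sequenced as paired-end reads of 36 bases, and the authors mapped the reads to GRCm39 in CLC Genomics Workbench. The deposited counts are raw gene counts, and the deposited TPM are the authors' length-corrected values. Strand setting, annotation version and the treatment of reads with several hits are not given in the sources used here. Another 18 per-sample columns (RPKM and CPM) and 24 columns of the authors' own comparisons (fold changes and p-values) were not used.

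Genes with at least 1 count in all 9 libraries (12614) entered 1 fit over all 3 groups, made in R 4.3.3 by the quasi-likelihood test of edgeR 4.0.16 in its robust form, with TMM scaling and Benjamini-Hochberg adjustment, and called at an adjusted p under 0.01 with a fold change over 1.5. Alternatives used DESeq2 1.42.0, limma 3.58.1 on log2(TPM + 1) and log2(TPM + 0.1), other factors and filters, background subtraction, a replicate block and leaving out each library. The edgeR test was checked on simulated counts. Total counts ran between 7514633 and 26782872, and the shallowest QSC library limits the precision of low genes.

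High and low libraries of the same number deviated together (correlations of 0.441, 0.428 and 0.178 over 12614 genes), and the block took these numbers as pairs. The sources used here do not state such a pairing, so it rests on the same counts that the paired fit tested. With QSCs these correlations lay between -0.0457 and 0.0131, and the main fit assumed no pairing. All 39 genes are described; of each pathway list, up to 5 called genes per comparison with the highest mean TPM were open to naming, and marker genes as checks. Some genes of these lists are counted but not reported here by name. The genes and lists were chosen with earlier results of these data known. Family shares were compared by a two-sided exact permutation test. Background counts were estimated from 1587 chemosensory receptor genes, scaled by gene length. Promoter windows came from RefSeq (GRCm38.p6), and no coordinates were converted between builds.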

Additional observations from a re-analysis of the deposited data

How the results depend on the processing

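In MyoD-tdTomato high against MyoD-tdTomato low, 645 genes were called. The count was 1205 at an adjusted p under 0.05 with the fold limit and 1437 without it, 984 with these 2 groups alone, 1906 with these 2 groups and the replicate block, 1211 with DESeq2, 415 with limma on log2(TPM + 0.1), and 112 to 596 without 1 library. The 4 pathway genes called higher became 2 with no filter on low counts, 3 with the replicate block in all 9 libraries, 3 with these 2 groups alone, 7 with the block and these groups, 3 each with RLE factors, upper-quartile factors, filterByExpr and background subtraction, 2 with limma on log2(TPM + 0.1) and 1 to 4 without 1 library. The 0 called lower became 3 at an adjusted p under 0.05 with or without the fold limit, 2 with the replicate block in all 9 libraries, 1 with these 2 groups alone, 3 with the block and these groups, 3 with DESeq2, and 0 to 1 without 1 library. The 8 pathway genes called lower in MyoD-tdTomato high against QSCs became 5 on both TPM scales, as did the 9 called lower in MyoD-tdTomato low against QSCs. Without 1 library, 5460 to 6854 genes of all were called in MyoD-tdTomato high against QSCs (6440 with all libraries) and 5224 to 6595 in MyoD-tdTomato low against QSCs (6191). The cause of these shifts was not tested. No called change of the 39 genes turned its sign under the alternatives run. Uncalled ones did, such as *Aldoc* with background subtraction (1.387 in MyoD-tdTomato high and 1.571 in MyoD-tdTomato low against QSCs, where edgeR without it gave -0.7 and -0.514) and *Pfkm*, *Phka1*, *Gbe1* and *Slc2a4* in MyoD-tdTomato low against QSCs on TPM (0.668, 0.545, 0.544 and 0.282). Counts of uniquely mapped reads were not analysed here.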
